A study of Mus musculus with 4 samples.

Results

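The genes of the m6A writer machinery were followed in mouse vascular smooth muscle cells (VSMCs) in which 1 of them, *Mettl14*, was the target of a hairpin. The members were the rows of the deposited count table whose symbol was *Mettl3*, *Mettl14*, *Wtap*, *1110037F02Rik* (the older symbol of *Virma*), *Zc3h13*, *Rbm15*, *Rbm15b*, *Cbll1* or *Mettl16*, which gave 9 of the 48587 genes listed. The cells were primary cultures grown from the descending aorta of C57BL/6J mice aged 8 to 12 weeks, and were used between passages 5 and 7. Both groups received a lentivirus for 24 hours and were collected 48 hours later. The shCTR group carried a hairpin directed at a plant microRNA sequence and the shMettl14 group a hairpin directed at *Mettl14*, with 2 libraries each that the labels letter A and B. Both groups were thus transduced with a lentivirus, and no gene was deleted. The labels name a single *Mettl14* hairpin, so what it did through *Mettl14* and through other transcripts cannot be told apart. Nothing in the labels says that the letters mark separate animals or cultures, so the p-values measure the spread between these libraries, which may be technical.

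N6-methyladenosine (m6A) is a methyl mark that the writer complex places on adenosines of newly made mRNA. METTL3 carries the catalytic site and METTL14 pairs with it to hold the RNA, while WTAP, VIRMA, ZC3H13, the paralogs RBM15 and RBM15B, and the RING-finger protein CBLL1 (also called HAKAI) form the regulatory part that directs this pair to its targets. METTL16 is a separate methyltransferase that acts alone on a few RNAs, among them the U6 small nuclear RNA and the *Mat2a* transcript, so that it is a writer but not a subunit of the complex. In arteries, m6A writers have been studied for their part in the switch of VSMCs from a contractile to a synthetic state.

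METTL3 and METTL14, which differ in role, also differ in the stretch of coding sequence that spells the 4-residue motif of the methyltransferase fold. It is given here because *Mettl14* is the targeted transcript and *Mettl3* its partner, and *Mettl16* is set beside them as the separate enzyme. The runs are coding-strand bases of GENCODE M21 transcripts on GRCm38, 5′ to 3′, and the capitals mark the motif codons. The *Mettl3* run lies on the minus strand at chr14:52297572-52297601 in exon 6 of 11 and codes for DPPW at residues 395 to 398, the catalytic motif. The *Mettl14* run lies on the minus strand at chr3:123374796-123374825 in exon 7 of 11 and codes for EPPL at residues 192 to 195, at the place of the catalytic motif in a protein that does not itself transfer the methyl group. The *Mettl16* run lies on the plus strand at chr11:74792274-74792303 in exon 5 of 11 and codes for NPPF at residues 184 to 187.
*Mettl3*: gtgatggctGACCCACCTTGGgatattcac
*Mettl14*: attctcctgGAGCCCCCTCTGgaagaatac
*Mettl16*: tgtatgtgcAACCCTCCCTTTtttgccaac

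The libraries held between 114343653 and 124815868 counts. A count of 0 thus allows up to 3 counts, or at most 0.0262 CPM (the usual unit of counts scaled to library size). That value uses these totals, without the normalization applied to the levels below. This limit covers counting error only, and the 9 writer genes had between 546 and 14833 counts in every library. All 6 smooth muscle markers (*Acta2*, *Tagln*, *Cnn1*, *Myh11*, *Smtn* and *Lmod1*) had counts in each library, and their summed level was 5763 to 6796 CPM with shCTR and 4441 to 4802 with shMettl14, lower in both shMettl14 libraries than in both shCTR libraries. All 7 endothelial markers, among them *Pecam1*, *Cdh5* and *Emcn*, were also present in every library, with summed levels of 1832 CPM in shCTR A, 3913 in shCTR B, 1722 in shMettl14 A and 2408 in shMettl14 B, although the cells are labelled as smooth muscle and the endothelium was scraped off when the aortas were prepared. The 6 leukocyte markers summed to 6.15 to 9.77 CPM, with *Adgre1* and *Cd3e* at 0 in at least 1 library. The 6 fibroblast markers summed to 547 to 783 CPM, with *Lum* at 0 in 1 library. That sum lay mostly in *Cd34* (414 to 505 CPM) and *Col14a1* (37.6 to 322 CPM). *Pdgfra* was at 7.93 to 14.5 CPM, and *Dpt*, *Lum* and *Pi16* reached at most 0.968 CPM.

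*Mettl14* mRNA was the writer transcript that differed most between the groups, at 23.6% of its shCTR level. *Mettl14* (ENSMUSG00000028114, chromosome 3 of GRCm38 from 123368297 to 123386108, minus strand) had 2050 and 2154 counts in shCTR A and B and 546 and 568 counts in shMettl14 A and B. After normalization these were 18.1 and 19.9 CPM with shCTR and 4.60 and 4.37 CPM with shMettl14. Both shMettl14 libraries lay below both shCTR libraries, and the spread within each group was small against the gap between them. The group means were 19.0 ± 1.34 CPM with shCTR and 4.48 ± 0.163 CPM with shMettl14 (SD, n = 2 libraries each). The log2 ratio of shMettl14 to shCTR, as edgeR fitted it, was −2.08 (SE 0.25), with a 95% interval that ran from 15.2% to 36.7% of the shCTR level. Within letter A the shMettl14 library held 25.5% of the level of its shCTR counterpart, and within letter B 21.9%. No gene passed edgeR's quasi-likelihood test at a Benjamini-Hochberg adjusted p under 0.05, and *Mettl14* was no exception (unadjusted p = 0.00039, adjusted p = 1.0), but its unadjusted p ranked 1 among the 18916 genes tested. DESeq2, the tool that the study's methods name, gave *Mettl14* an adjusted p of 3.0e-07 at a log2 ratio of −2.09, with 5 of 29127 genes (0.0172%) called in all. For a single gene, the smallest two-sided p that exact permutation allows with 2 libraries a group is 0.333. In bulk RNA, fewer cells that hold a transcript and less of it per cell cannot be told apart. The summed smooth muscle markers were lower with shMettl14 as well, which rested on *Acta2* and *Tagln*, since the groups overlapped for the other 4 and *Lmod1* was higher with shMettl14 within letter B. The part of cell makeup in the *Mettl14* difference was not tested.

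**Figure D1:**
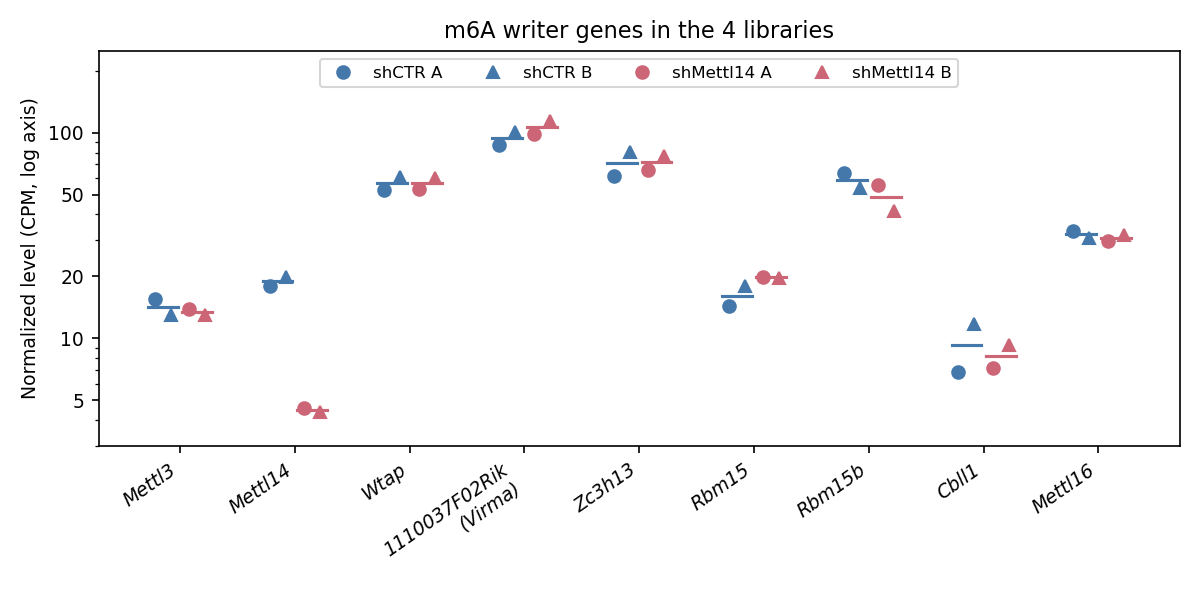
Normalized level (CPM, log axis) of the 9 writer genes in each library, with circles for letter A, triangles for letter B, blue for shCTR and red for shMettl14, and a line at each group mean. *Mettl14* stands at 18.1 and 19.9 CPM with shCTR and at 4.60 and 4.37 with shMettl14, while the points of the other genes lie close together, apart from the gap between letters of *Cbll1*.

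The partner methyltransferase *Mettl3* (ENSMUSG00000022160, chromosome 14 from 52294841 to 52305128, minus strand) showed no difference of this size. It had 1764 and 1407 counts in shCTR A and B and 1641 and 1690 in shMettl14 A and B, or 15.5, 13.0, 13.8 and 13.0 CPM in that order. The groups overlapped, with shMettl14 A between the shCTR values and shMettl14 B level with the lower of them. The mean was 14.3 ± 1.77 CPM with shCTR and 13.4 ± 0.584 with shMettl14 (SD, n = 2 each), a log2 ratio of −0.09 (SE 0.24, edgeR unadjusted p = 0.72 and adjusted p = 1.0). The 95% interval ran from 61.4% to 144% of the shCTR level, so it does not overlap that of *Mettl14*. Of the exon bases of *Mettl3*, 18.4% are also covered by *Tox4* on the other strand, which had 6588 to 6987 counts per library and a log2 ratio of −0.19 (unadjusted p = 0.38 from edgeR), and the sources used here do not give the strand setting of the counting, so the *Mettl3* counts are uncertain to that extent.

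Because both genes are read in the same library, the ratio of *Mettl14* to *Mettl3* is free of library scaling. Per kilobase of exon, the ratio of the levels was 0.795 in shCTR A and 1.05 in shCTR B, and 0.228 in shMettl14 A and 0.230 in shMettl14 B. With the union of exons as the length, the shCTR libraries thus held the pair at similar levels and the shMettl14 libraries did not. The ratios of the groups did not overlap. The ratio in shMettl14 was 28.6% of that in shCTR within letter A and 22.0% within letter B. Against *Wtap*, the *Mettl14* level was 0.289 and 0.275 in the shCTR libraries and 0.0730 and 0.0611 in the shMettl14 libraries. The size of the ratio to *Mettl3* depends on the length used, since *Mettl3* has 5076 bases in the union of its exons and 2159 in its longest transcript. With the longest transcripts the mean ratio was 0.404 with shCTR and 0.100 with shMettl14. By that length the pair was not at similar levels with shCTR either. The percentages within letters are the same by construction.

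**Figure D2:**
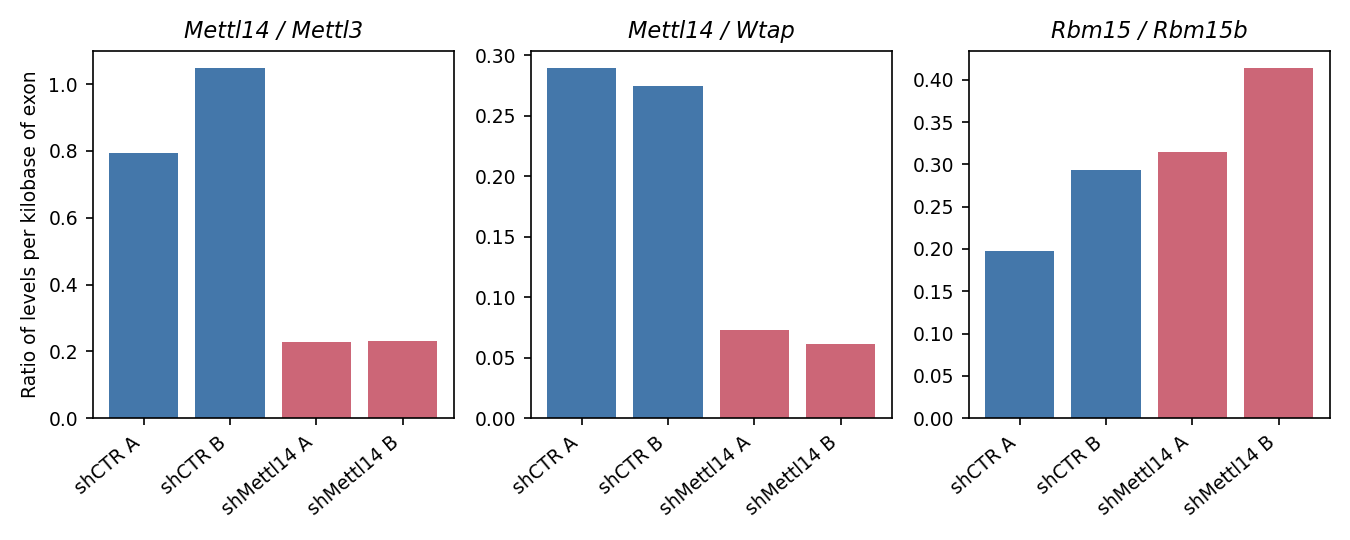
Ratios of levels per kilobase of exon within each library, as bars that start at 0, blue for shCTR and red for shMettl14. *Mettl14* to *Mettl3* and *Mettl14* to *Wtap* are lower in both shMettl14 libraries. *Rbm15* to *Rbm15b* is between 0.198 and 0.293 with shCTR and between 0.315 and 0.414 with shMettl14. The ratios to *Wtap* and of *Rbm15* to *Rbm15b* were chosen after their values were seen.

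The regulatory subunits that hold the complex together did not differ between the hairpins by more than the spread of the libraries. *Wtap* (ENSMUSG00000060475, chromosome 17 from 12966796 to 12994169, minus strand), which anchors the METTL3 and METTL14 pair in nuclear speckles, had 52.5 and 61.1 CPM in shCTR A and B and 53.1 and 60.2 CPM in shMettl14 A and B. The groups overlapped fully, and each letter kept its own level. Its log2 ratio was −0.0048 (SE 0.20, edgeR unadjusted p = 0.98), with a 95% interval from 69.4% to 143% of the shCTR level. *1110037F02Rik* (*Virma*, ENSMUSG00000040720, chromosome 4 from 11485958 to 11550684, plus strand), the large scaffold that steers methylation toward the end of the transcript, had 86.9 and 101 CPM with shCTR and 98.1 and 114 CPM with shMettl14. The shMettl14 library was the higher of the pair within each letter, by 0.17 on the log2 scale in both A and B, but the groups overlapped. The log2 ratio of *1110037F02Rik* was 0.17 (SE 0.21, edgeR unadjusted p = 0.43), with an interval from 78.3% to 163% of shCTR. *Zc3h13* (ENSMUSG00000022000, chromosome 14 from 75284373 to 75344426, plus strand), the zinc-finger protein that keeps the complex in the nucleus, had 61.3 and 80.7 CPM with shCTR and 66.0 and 77.3 CPM with shMettl14. Both shMettl14 values of *Zc3h13* lay between the shCTR values. Its log2 ratio was 0.01 (SE 0.23, edgeR unadjusted p = 0.95), within an interval from 66.8% to 153% of shCTR.

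The RNA-binding adaptors *Rbm15* and *Rbm15b*, which bring the complex to its target RNAs, lay on opposite sides of their shCTR levels, and neither passed the test. *Rbm15* (ENSMUSG00000048109, chromosome 3 from 107325421 to 107333673, minus strand) had 1629 and 1935 counts in shCTR A and B and 2368 and 2559 in shMettl14 A and B, which were 14.3, 17.9, 19.9 and 19.7 CPM. It was the only member whose shMettl14 libraries both lay above both shCTR libraries, a pattern that 14.7% of all tested genes had. The mean was 16.1 ± 2.53 CPM with shCTR and 19.8 ± 0.189 with shMettl14 (SD, n = 2 each), a log2 ratio of 0.30 (SE 0.23, edgeR unadjusted p = 0.26). The difference was 0.48 on the log2 scale within letter A and 0.14 within letter B, and the 95% interval ran from 81.0% to 186% of shCTR. *Rbm15b* (ENSMUSG00000074102, chromosome 9 from 106880918 to 106887428, minus strand) had 63.5 and 53.6 CPM with shCTR and 55.5 and 41.7 CPM with shMettl14. It was lower with shMettl14 in each letter, yet shMettl14 A lay above shCTR B, so the groups overlapped. Its log2 ratio was −0.27 (SE 0.24, edgeR unadjusted p = 0.31), with an interval from 54.4% to 127% of shCTR. The ratio of *Rbm15* to *Rbm15b* per kilobase of exon, a quantity chosen after the values were seen, was 0.198 and 0.293 in shCTR A and B and 0.315 and 0.414 in shMettl14 A and B. The groups did not overlap, by a narrow margin, and the ratio was 159% of shCTR within letter A and 141% within letter B. The log2 ratios of these genes were the highest and lowest of the 8 members other than *Mettl14*, so this separation carries no test.

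*Cbll1* was the least abundant member by counts in the shCTR libraries and, among those libraries, the one that differed most between letters. *Cbll1* (ENSMUSG00000020659, chromosome 12 from 31484829 to 31499616, minus strand) had 777 and 1274 counts in shCTR A and B and 852 and 1208 counts in shMettl14 A and B, which were 6.84, 11.8, 7.18 and 9.29 CPM. Both libraries of letter B were above both libraries of letter A, whichever hairpin they carried. The log2 ratio was −0.18 (SE 0.37, edgeR unadjusted p = 0.65), and it turned to 0.26 without shCTR B. The ratio within letter A was 0.07 on the log2 scale and within letter B −0.34. Its 95% interval, from 45.5% to 172% of shCTR, was the widest of the 9. Of the exon bases of *Cbll1*, 17.6% are also covered by *Gm29542* on the other strand, which had 0 counts in every library.

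*Mettl16*, the writer outside the complex, was within a narrow range in all 4 libraries. *Mettl16* (ENSMUSG00000010554, chromosome 11 from 74770830 to 74828525, plus strand) had 33.3 and 30.7 CPM in shCTR A and B and 29.8 and 31.9 CPM in shMettl14 A and B. The groups overlapped, with shMettl14 the lower within letter A and the higher within letter B. Its log2 ratio was −0.05 (SE 0.20, edgeR unadjusted p = 0.80), with an interval from 67.8% to 137% of shCTR. *Mat2a*, the methionine adenosyltransferase gene whose transcript METTL16 controls, had 146 and 161 CPM with shCTR and 139 and 186 CPM with shMettl14, a log2 ratio of 0.08 (SE 0.23), and was named for that link after its values had been seen.

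Counted together, 0 of the 9 writer genes passed edgeR's test at an adjusted p under 0.05, as did 0% of all 18916 genes tested. Without adjustment, 1 member was lower at p under 0.05, *Mettl14*, against 1.01% of all genes, and 0 were higher, against 0.656%. The libraries of the groups were fully apart for *Mettl14*, which was lower as were 13.3% of all genes, and for *Rbm15*, which was higher, and they overlapped for the other 7. Within both letters, 3 members were lower with shMettl14 (*Mettl14*, *Mettl3* and *Rbm15b*), against 27.6% of all genes, and 2 were higher (*1110037F02Rik* and *Rbm15*), against 30.0%. Apart from the unadjusted p of *Mettl14*, these shares are near those of all genes and are no result about the members. The median log2 ratio of the 8 members other than *Mettl14* was −0.03, beside 0.01 over all genes tested. Scaling by library totals alone moved the median of all genes to 0.12, and 3 estimates then changed sign, to 0.02 for *Mettl3*, 0.11 for *Wtap* and 0.06 for *Mettl16*, which relative to that median were −0.10, −0.01 and −0.06. A p that misses the threshold does not show that the 8 were unchanged, but their 95% intervals bound what the data allow: together they ran from 45.5% to 186% of shCTR, and none reached down to the upper end of the *Mettl14* interval.

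**Figure D3:**
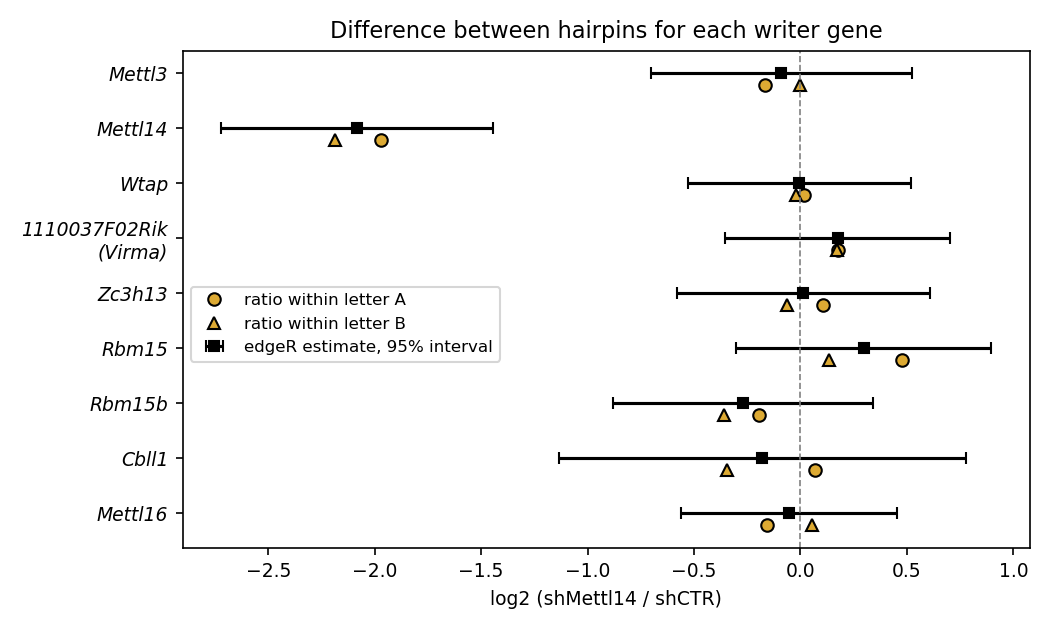
Log2 ratio of shMettl14 to shCTR (horizontal axis) for each of the 9 writer genes, with the edgeR estimate as a square, its 95% interval as a bar, and the ratio within letter A (circle) and within letter B (triangle) below it. The *Mettl14* interval, from −2.72 to −1.45, lies apart from those of the other 8, all of which include 0.

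For most of the 8 other members the letters differed more than the hairpins did, an order that the medians over all genes tested had as well. In 6 of the 8, the larger of the log2 differences between B and A exceeded the larger of the differences between hairpins within a letter. The share of all genes that did so was not computed, so this count is no result about the members. The median absolute difference between B and A over the 8 genes was 0.25 on the log2 scale with shCTR and 0.20 with shMettl14, against 0.16 between hairpins within A and 0.10 within B. Over all genes tested the same medians were 0.51, 0.34, 0.26 and 0.31. The medians of the 8 genes were thus below those of all genes in each of these contrasts. The sets were not matched for level, since 18916 genes were tested and 16236 had at least 10 counts in every library. The part of level in these medians was not tested. In both groups *Wtap*, *1110037F02Rik*, *Zc3h13* and *Cbll1* were higher in B than in A, and *Mettl3* and *Rbm15b* were lower. With shCTR the difference was largest for *Cbll1*, 0.78, and with shMettl14 for *Rbm15b*, −0.41, followed by *Cbll1*, 0.37. The summed endothelial markers were also higher in B than in A in both groups (3913 against 1832 CPM with shCTR and 2408 against 1722 with shMettl14), although *Tie1* on that list was lower. The fibroblast sum was lower in B, at 547 against 752 CPM with shCTR and 559 against 783 with shMettl14. That lay mostly in *Col14a1*, at 37.6 against 322 and 44.5 against 318 CPM. *Cd34* on that list was higher in B, at 498 against 414 and 505 against 449 CPM. The smooth muscle list was mixed. *Myh11* was lower in B, at 101 against 338 and 75.0 against 233 CPM, as were *Acta2*, *Cnn1* and *Lmod1*. *Tagln* (2449 against 2333 and 2254 against 1616 CPM) and *Smtn* (170 against 145 and 158 against 129 CPM) were higher in B. The part of these markers in the letter differences was not tested.

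**Figure D4:**
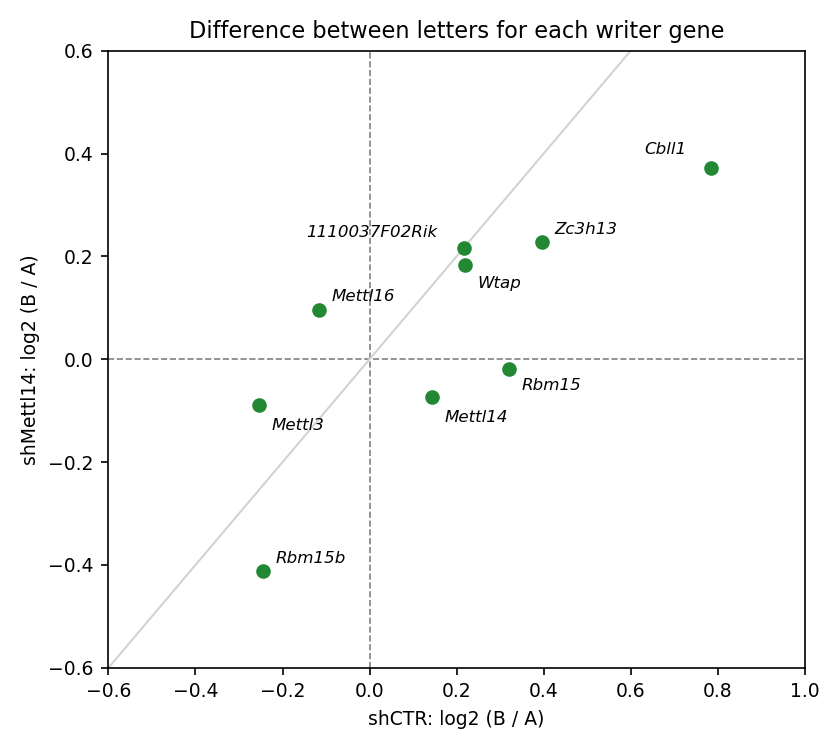
Log2 difference between letter B and letter A in the shCTR libraries (horizontal axis) and in the shMettl14 libraries (vertical axis) for each of the 9 writer genes, with the grey diagonal where both are equal. *Cbll1* lies farthest to the right at 0.78, and *Rbm15b* lowest at −0.41.

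To set the genes against each other, levels were divided by the length of the gene's exons. In the shCTR libraries the mean level per kilobase of the union of exons was highest for *1110037F02Rik* at 13.2 ± 1.40 CPM per kilobase (SD, n = 2), followed by *Zc3h13* at 11.3 ± 2.18, *Wtap* at 9.10 ± 0.975 and *Rbm15b* at 9.0 ± 1.08. Neighbours among these 4 overlapped in their libraries, and *Rbm15b* was apart from the next gene. The other 5 followed at *Mettl3* 2.81 ± 0.349, *Mettl14* 2.56 ± 0.181, *Cbll1* 2.33 ± 0.874, *Mettl16* 2.31 ± 0.132 and *Rbm15* 2.17 ± 0.340 CPM per kilobase, with every neighbour in this order overlapping the next. Of the 6 regulatory genes, *1110037F02Rik*, *Zc3h13*, *Wtap* and *Rbm15b* were thus above the methyltransferase pair per length, and *Cbll1* and *Rbm15* were not. With shMettl14, *Mettl14* was at place 9 instead of 6, at 0.604 ± 0.0220 CPM per kilobase, apart from *Cbll1* above it at 2.05 ± 0.373. *Mettl14* made up 4.71% and 4.65% of the summed level of the 9 genes in shCTR A and B, and 1.21% and 1.08% in shMettl14 A and B. The sum itself was 51.6 and 57.9 CPM per kilobase with shCTR and 51.2 and 54.8 with shMettl14, with the groups overlapping. With the longest transcript as the length, 6 of the 9 genes took another place in the shCTR order, *Wtap* came first at 17.8 ± 1.91 and *Mettl3* was at 6.61 ± 0.820 CPM per kilobase, still at place 5 and then apart from *Rbm15* below it.

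**Figure D5:**
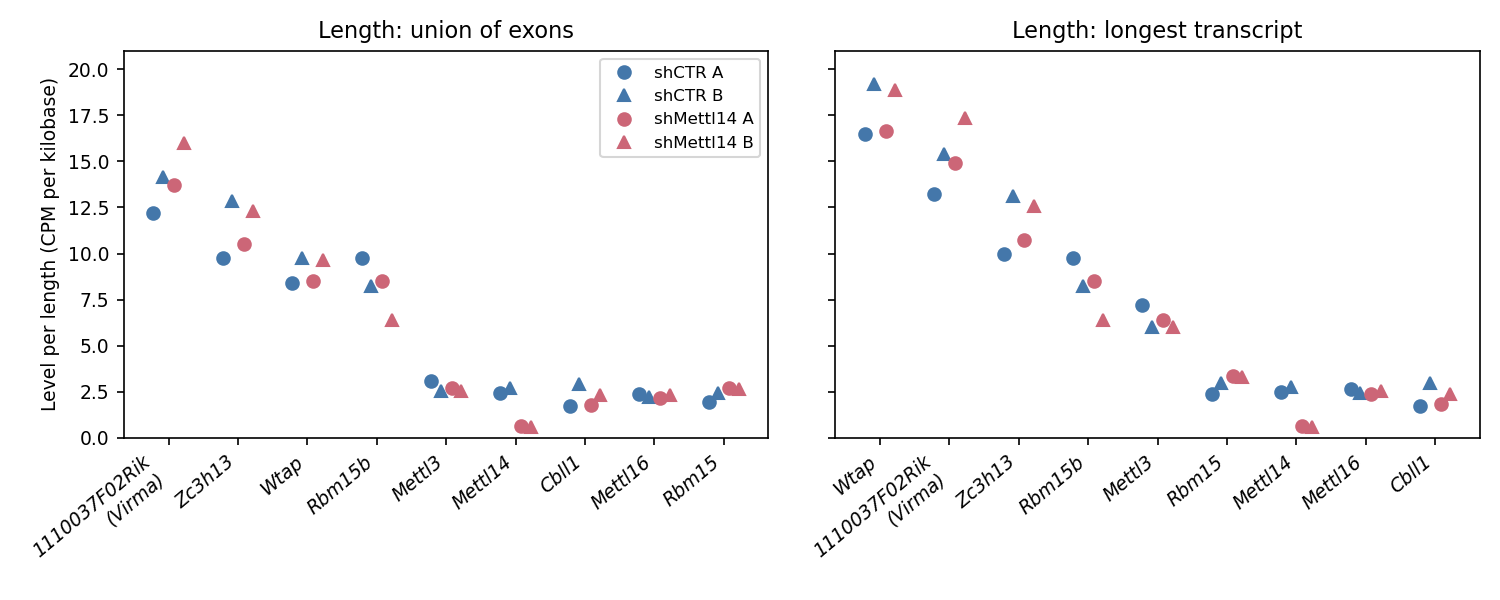
Level per length (CPM per kilobase) of the 9 writer genes in the 4 libraries, in the order of the shCTR means, with the union of exons as the length on the left and the longest transcript on the right. Only *Mettl14* has its shMettl14 points far below its shCTR points, and *Wtap* and *Mettl3* gain most from the change of length.

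The other genes of the m6A pathway were read from 4 lists, of which all 24 genes were tested, and 0 of them passed edgeR's test after adjustment. Without adjustment, 1 was lower at p under 0.05 and 0 were higher, beside 1.01% and 0.656% of all genes, and without shCTR A the numbers were 2 and 1, when 1399 of 20278 genes were past that p. The gene that was lower with all libraries was the eraser *Fto*, a demethylase that removes m6A and the related cap mark, with 78.1 and 83.3 CPM in shCTR A and B and 40.9 and 41.0 CPM in shMettl14 A and B. *Fto* was thus at 50.7% of its shCTR level with the groups far apart, a log2 ratio of −0.98 (SE 0.19, edgeR unadjusted p = 0.0033 and adjusted p = 1.0, 95% interval −1.46 to −0.50). The other eraser, *Alkbh5*, had 71.2 and 59.4 CPM with shCTR and 76.7 and 73.8 CPM with shMettl14. Its groups did not overlap either, in the other direction, but the difference was about the size of its standard error (log2 ratio 0.20, SE 0.20, unadjusted p = 0.35 from edgeR).

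Among the 12 genes listed as readers, whose proteins bind RNA that carries m6A, 5 had a log2 ratio below 0 and 7 above 0. Their median was 0.02 and their lowest unadjusted p was 0.18 (edgeR). The reader *Igf2bp1* had that p, with 2.50 and 2.47 CPM in shCTR and 3.17 and 4.03 CPM in shMettl14, a log2 ratio of 0.53 (SE 0.34). The cytoplasmic reader *Ythdf1* was next by p, with 69.2 and 45.0 CPM in shCTR and 70.6 and 65.3 CPM in shMettl14, and its groups overlapped. Of the 5 genes for other RNA adenosine methyltransferases and their partners, the groups were apart for *Trmt112*, a partner of several methyltransferases (31.4 and 31.6 CPM with shCTR, 24.4 and 27.5 with shMettl14, log2 ratio −0.28, SE 0.20), and for *Zcchc4*, the ribosomal RNA methyltransferase (10.8 and 10.6 against 11.4 and 12.2 CPM, log2 ratio 0.14, SE 0.24). Of the 5 genes listed under supply of the methyl donor, *Ahcyl1* had the lowest unadjusted p, 0.18 (edgeR), and *Mat2b* the next, 0.39. *Ahcyl1* had 218 and 268 CPM in shCTR and 183 and 205 in shMettl14. Over the 24 genes the groups were apart and lower for 4 and apart and higher for 4, and they overlapped for the other 16, beside 13.3% of all genes apart and lower and 14.7% apart and higher.

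Across the 4 libraries, 5 genes had the pattern most like that of *Mettl14*, by the root mean square difference of log2 CPM after each gene was centred on its own mean, among 9097 genes with a mean of at least 10 CPM. These were *Atp6v1a*, a subunit of the vacuolar proton pump, at 0.320, *Chst12*, a chondroitin sulfotransferase, at 0.335, *Cbfb*, the partner of the RUNX transcription factors, at 0.369, *Ammecr1* at 0.477 and the growth factor *Fgf2* at 0.486. They stood at 35.3%, 36.5%, 39.1%, 43.9% and 41.7% of their shCTR levels in that order, so none reached the 23.6% of *Mettl14*. *Fto* was at place 14 of this order with 0.551. The other 7 writer genes with at least 10 CPM were spread over it, from place 1318 for *Rbm15b* to place 7736 for *Rbm15* among the 9097 genes. The genes were chosen by this likeness, so their values are a description and carry no test.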

How the data were processed

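Poly-A RNA of mouse VSMCs was sequenced in 4 libraries, 2 with shCTR and 2 with shMettl14. The authors mapped paired-end reads to mm10 with STAR, counted them per gene with featureCounts, and deposited raw counts in a single table of 48587 genes, with every sample column matched to a label. Whether multiply mapped reads were counted is not given in the sources used here, nor is the strand setting for the stranded kit.

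Genes kept by filterByExpr (18916 of 29127 with a count) were tested with edgeR 4.0.16 (quasi-likelihood, TMM factors, robust) in R 4.3.3, with Benjamini-Hochberg adjustment over all of them. The procedure was tested on simulated data, drawn with less spread than these libraries and with no letter difference. That run does not show how often the test finds a real change here. DESeq2 1.42.0, other scalings, other filters, leaving out each library, a block for the letters and another gene length were the alternatives. CPM used TMM-scaled library sizes, and SDs are over 2 libraries. Libraries of a group differed far beyond sampling noise (chi-square per degree of freedom 577 for shCTR and 288 for shMettl14), so none was counted as a duplicate. Gene models and sequences came from GENCODE M21 on GRCm38, in which all 9 members matched, *1110037F02Rik* through its newer symbol.

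The members and lists were chosen with earlier results of these data known. Named are the 9 members, the 2 genes of each pathway list with the lowest unadjusted p, and the 5 genes of at least 10 CPM with the pattern most like *Mettl14*. *Mat2a* and the ratios to *Wtap* and of *Rbm15* to *Rbm15b* were added after their values were seen. No result met a rule for a closer look, since groups of 2 libraries cannot be tested for outliers.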

Additional observations from a re-analysis of the deposited data

How the results depend on the processing

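With 2 libraries per group the spread is poorly known, and it limits the calls more than the depth does. The *Mettl14* difference was −2.09 with DESeq2 and −2.08 with the letter as a block, and it passed the adjusted threshold in both, where the members lower at an adjusted p numbered 1 each. In the other edgeR settings with all libraries its adjusted p was 0.24 to 1.0. The letters are not stated to mark shared cultures and give only 2 pairs, and deviations of libraries with the same letter correlated at 0.578 across genes. The replicate block lowered the common dispersion from 0.178 to 0.0418, gave *Mettl14* an adjusted p of 0.0039 and called 9 genes (0.0476%), while the lowest adjusted p among the other members was 0.60.

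Without 1 library at a time, *Mettl14* ranged from −2.15 to −2.01, with 0 members called at an adjusted p. Estimates near 0 changed sign: *Mettl3* (−0.22 to 0.046) and *Mettl16* (−0.11 to 0.010) without shCTR A, *Wtap* (−0.11 to 0.11) without shCTR B or shMettl14 A, *Zc3h13* (−0.17 to 0.22) without shCTR A or shMettl14 B, and *Cbll1* (−0.51 to 0.26), *Ythdf1* (−0.030 to 0.60) and *Mat2b* (−0.0053 to 0.51) without shCTR B. A group left with 1 library was assumed to vary like the other. With library totals alone *Mettl3* was at 0.017, *Wtap* at 0.11 and *Mettl16* at 0.057, and *Wtap* was at 0.016 with upper-quartile factors, 0.0098 with no filter and 0.0068 with at least 10 counts in every library. *Mettl14*, *1110037F02Rik*, *Rbm15* and *Rbm15b* kept their direction in every setting run, and the cause of the other sign changes was not tested. The *Mettl14* to *Mettl3* ratio was 1.35 with shCTR and 0.334 with shMettl14 from raw counts, and 0.404 and 0.100 with the longest transcripts, an alternative chosen after seeing the data.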
